A study of Mus musculus with 30 samples.

Results

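Npas4 was followed across 30 prefrontal cortex libraries as 1 gene of the 18240 in the table. It was chosen by its drug response, as the gene with the largest fold change and smallest p among called genes with both fluoxetine and lithium against vehicle, so those values are given below as a description, without a test. Stranded poly(A) RNA libraries were made in bulk from the tissue of C57BL/6J mice at postnatal day 40. The mice were heterozygous (HT) or wild type (WT) for Adnp, which encodes a homeodomain protein that binds chromatin. HT mice received fluoxetine, a serotonin reuptake inhibitor (4 male and 4 female libraries), lithium, a mood stabilizer (4 male and 3 female), or vehicle (3 male and 4 female), and WT mice received vehicle (4 male and 4 female). WT mice given a drug were not analysed here. The sources used here do not give the dose, the duration, the time from the last dose to dissection or the part of Adnp altered in the HT allele. The labels do not say whether each library came from a separate mouse, so p-values measure the spread between libraries, which may be technical.

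NPAS4 is a transcription factor of the basic helix-loop-helix PAS family that dimerizes with ARNT or ARNT2. In neurons its transcription is switched on within minutes by calcium entry during electrical activity, and the protein then acts on the promoters and enhancers of activity-regulated genes such as Bdnf. In rodent cortex and hippocampus it is known for adjusting the inhibitory synapses that a neuron receives, and, unlike Fos, it responds to depolarization but little to growth factors.

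The mouse gene lies on the minus strand at chr19:4984355-4990316 (GRCm38, GENCODE release M21), with 4136 exonic bases, and 0 other annotated genes overlap it. Its promoter is shown with those of Fos, an AP-1 subunit, and Btg2, an antiproliferative co-regulator of transcription and mRNA decay, because these had the next smallest p after Npas4 in both drug comparisons. Each sequence is the 250 bases before the RefSeq start (GRCm38.p6), read 5′ to 3′ on the gene's own strand: chr19:4989972-4990221 (minus) for Npas4, chr12:85473640-85473889 (plus) for Fos and chr1:134079156-134079405 (minus) for Btg2. Capitals mark TGACG on either strand, the core of the cAMP response element (CRE), the sequence that CREB binds. For Npas4, the GENCODE gene model begins upstream of the RefSeq start used here.
Npas4: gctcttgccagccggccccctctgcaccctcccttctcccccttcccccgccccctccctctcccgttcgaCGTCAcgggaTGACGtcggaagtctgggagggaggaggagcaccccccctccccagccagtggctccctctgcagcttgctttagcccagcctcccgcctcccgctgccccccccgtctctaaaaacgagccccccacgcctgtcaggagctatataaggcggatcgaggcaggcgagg
Fos: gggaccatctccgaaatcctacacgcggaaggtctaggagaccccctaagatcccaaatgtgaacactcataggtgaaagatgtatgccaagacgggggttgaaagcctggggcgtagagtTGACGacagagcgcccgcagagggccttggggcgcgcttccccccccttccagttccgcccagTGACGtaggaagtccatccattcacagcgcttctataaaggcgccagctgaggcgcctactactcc
Btg2: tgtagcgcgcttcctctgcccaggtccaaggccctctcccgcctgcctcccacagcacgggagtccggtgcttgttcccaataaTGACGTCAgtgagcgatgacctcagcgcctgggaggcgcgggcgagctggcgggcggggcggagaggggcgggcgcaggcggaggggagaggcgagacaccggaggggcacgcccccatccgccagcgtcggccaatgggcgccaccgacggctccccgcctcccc

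Npas4 held 2 matches to TGACG, which begin 179 and 169 bases before its start. Fos also held 2, at 129 and 66 bases. Btg2 held 2 that overlap, at 166 and 163 bases, and together they make the full palindrome TGACGTCA. TGACG was found in 17.8% of the 32817 promoter windows of this length and 2 or more matches in 3.90%, whereas TGACGTCA was found in 1.55%. The core TCGTG, which NPAS4 with ARNT is reported to bind, and the AP-1 motif TGANTCA had 0 matches in these 3 windows, against 13.3% and 6.75% of all windows. These letters describe the windows shown and say nothing of binding.

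Npas4 was well covered. It received 528 to 2255 reads per library, of 23771758 to 34307061 reads in all, so counting alone gives a coefficient of variation of 2.11% to 4.35%. Values below are normalized read counts, that is, reads divided by the authors' 1 size factor per library. In prefrontal cortex libraries excitatory neuron markers such as Slc17a7 and Neurod6 were well expressed, with a sum over 7 markers of 41865 to 69600, and 0 of them were at 0 in any library. Markers of striatal neurons (Drd1, Drd2 and 7 others) and of olfactory bulb and neuroblasts (Eomes, Dcx and 5 others) were present in every library in varying amounts. The Adnp row alone averaged 2251 ± 137 in HT vehicle and 1898 ± 157 in WT vehicle (SD, n = 7 and 8). Summed with Gm20716, a gene model that overlaps Adnp on the same strand, it was 3404 to 3887 in the 22 HT libraries and 4226 to 4433 in the 8 WT libraries, without overlap. In bulk tissue, fewer cells of a type and less RNA per cell cannot be told apart.

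With either drug, Npas4 was higher in every drug-treated library than in every vehicle library of either genotype. In HT males given fluoxetine the normalized counts were 1438, 1566, 1463 and 1504, and in HT females given fluoxetine 1392, 1330, 1348 and 1309. HT males given lithium had 1732, 1792, 2136 and 2111, and HT females given lithium 1888, 1109 and 1218. HT vehicle males had 620.0, 551.4 and 613.5, and HT vehicle females 982.2, 887.5, 904.0 and 600.0. The highest vehicle values were thus in females of both genotypes and the lowest drug values in lithium females, and the ranges did not meet.

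WT vehicle males had 792.0, 666.4, 761.5 and 638.1, and WT vehicle females 738.6, 927.3, 1007 and 863.7. The 15 drug-treated libraries ran from 1109 to 2136 and the 15 vehicle libraries from 551 to 1007. Among the 16824 genes tested, 2 had all 15 drug-treated libraries above all 15 vehicle libraries, Npas4 and Btg2, and 0 had all of them below. The calls at an adjusted p under 0.05 took in 0.0357% of genes for fluoxetine and 0.0892% for lithium. The plot of Npas4 by library shows this gap.

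**Figure D1:**
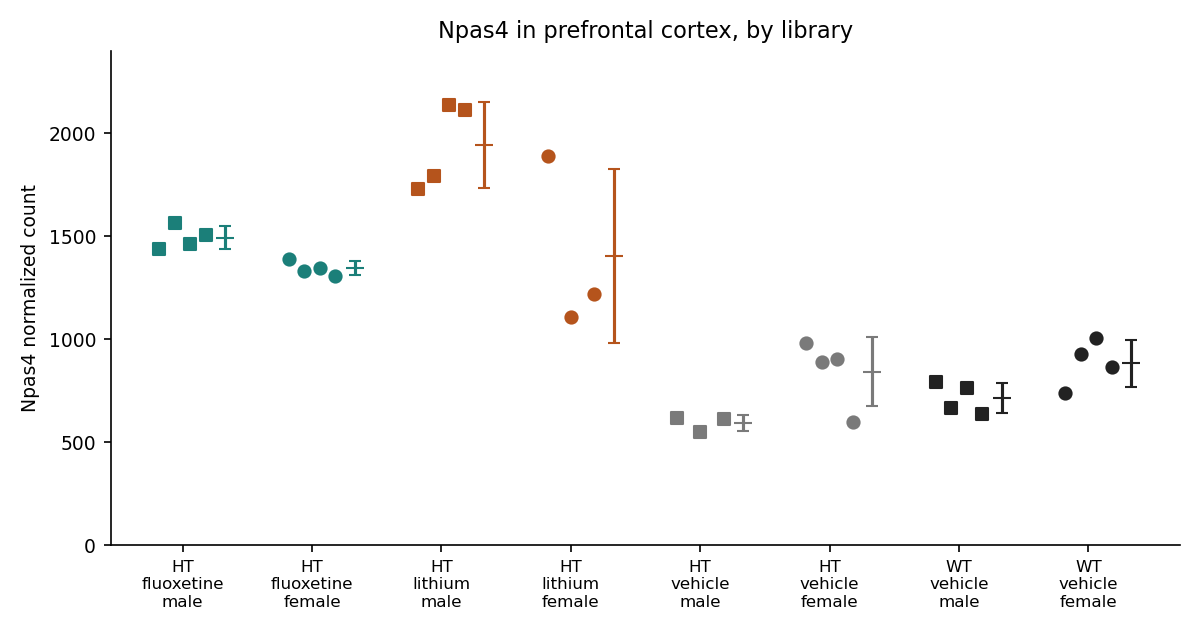
Npas4 normalized count (vertical axis, linear from 0) in each of the 30 libraries by group, males as squares and females as circles, with the group mean and SD at the right of each group. The 15 drug-treated libraries sit between 1109 and 2136 and the 15 vehicle libraries between 551 and 1007.

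Folds here come from the mean of the male and female log2 differences, so they can differ from the ratio of the pooled means given in brackets. Relative to HT vehicle, the level was 2.02-fold with fluoxetine (1419 ± 90.2, n = 8, against 737 ± 179, n = 7, SD). The log2 fold change was 1.01 (SE 0.101, 95% interval 0.80 to 1.22). With lithium it was 2.31-fold (1712 ± 405, n = 7, against 737 ± 179, n = 7, SD), a log2 fold change of 1.21 (SE 0.105, 95% interval 0.99 to 1.43). The coefficient of variation was 6.36% in HT fluoxetine and 23.6% in HT lithium, against 24.3% in HT vehicle. The next genes among those called were Fosb and Btg2 for fluoxetine, with log2 fold changes of 0.91 and 0.80, and Btg2 and Ccn1 for lithium, with 1.03 and 1.0005. Against WT vehicle (799 ± 127, SD, n = 8) the log2 fold changes were 0.84 for HT fluoxetine and 1.04 for HT lithium. The fluoxetine and lithium comparisons share the same vehicle libraries. Npas4 was chosen by these drug values, so they may be too high. The intervals make no allowance for that choice and are not tests.

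Markers of neighbouring tissue varied between libraries, and none was called with lithium. The median log2 fold change of the 7 olfactory bulb and neuroblast markers was 1.13 and that of the 9 striatal markers -0.65, with 0 called in either list. The summed olfactory bulb markers ran from 2329 to 18621 in HT lithium and from 1965 to 17044 in HT vehicle, and the summed striatal markers from 6531 to 19273 in HT lithium and from 6893 to 30370 in HT vehicle. With both marker scores as covariates, the log2 fold change of Npas4 with lithium was 1.17 and with fluoxetine 1.003.

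No difference in Npas4 between the genotypes under vehicle passed the test. HT vehicle averaged 737 ± 179 (n = 7) and WT vehicle 799 ± 127 (n = 8, SD), a log2 difference of -0.17 (SE 0.101, 95% interval -0.38 to 0.04). The limma p adjusted over all genes was 0.892, and the exact permutation test of libraries within sex gave p = 0.127. In males the 3 HT values lay below all 4 WT values (595 ± 37.9 against 714 ± 73.9), and in females the ranges overlapped (843 ± 167 against 884 ± 113). The log2 difference was -0.26 in males (SE 0.148) and -0.08 in females (SE 0.137), and neither passed. The difference between the sexes in this genotype difference was -0.18 (SE 0.202, exact permutation p = 0.58).

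The drugs could not be separated at this depth of replication. Fluoxetine minus lithium was -0.20 (SE 0.101, 95% interval -0.41 to 0.01, limma adjusted p = 0.75, exact permutation p = 0.103 within sex). In males all 4 fluoxetine libraries lay below all 4 lithium libraries (1493 ± 55.6 against 1943 ± 211), a log2 difference of -0.37 (SE 0.137, limma unadjusted p = 0.0116, adjusted p = 0.883). In females 2 of 3 lithium values lay below the fluoxetine values and 1 above (1345 ± 35.1 with fluoxetine against 1405 ± 421 with lithium).

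Ordered by mean, HT lithium males came first and lay beyond the spread of the next group, HT fluoxetine males. The steps from HT fluoxetine males to HT lithium females and on to HT fluoxetine females were within the larger SD, 421 in HT lithium females. HT fluoxetine males and females did not overlap each other (1438 to 1566 against 1309 to 1392). The step from HT fluoxetine females to WT vehicle females was the next beyond the spread. Those from WT vehicle females to HT vehicle females and on to WT vehicle males were again within it. HT vehicle males were lowest, and their range did not meet that of WT vehicle males.

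Sex was not used to choose Npas4, though the libraries are those whose drug response chose it. The drug response was larger in males than in females for both drugs. With fluoxetine, males reached 1493 ± 55.6 against 595 ± 37.9 with vehicle, and females 1345 ± 35.1 against 843 ± 167 (SD, n = 3 or 4 each). The log2 fold changes were 1.33 in males and 0.70 in females. With lithium they were 1.70 in males, who had 1943 ± 211 against 595 ± 37.9 with vehicle, and 0.72 in females, who had 1405 ± 421 against 843 ± 167.

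The male minus female difference of the fluoxetine response was 0.63 (SE 0.202) and that of the lithium response 0.98 (SE 0.209). By exact permutation of sex within each treatment the p-values were 0.0159 and 0.0122, and 0.0239 for each after Benjamini-Hochberg adjustment over the 3 sex differences examined. This permutation supposes no sex difference with drug or with vehicle, so a low p need not mean an unequal drug response. In the limma fit across all genes the unadjusted p-values were 0.00447 and 8.51e-05, and adjusted over all genes 0.779 and 0.47, which do not pass. At an adjusted p under 0.05, 0 genes were called for a sex difference of either response by limma and by edgeR, with 1002 genes for fluoxetine and 1684 for lithium at an unadjusted p under 0.05, and DESeq2 called 1 and 0. Both differences draw on the same 7 HT vehicle libraries.

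The sex difference had opposite signs with and without drug. Males minus females was 0.15 with fluoxetine, where 4 of 4 male values exceeded all female values, and 0.50 with lithium. It was -0.48 in HT vehicle and -0.30 in WT vehicle. The 4 exact permutation p-values were 0.0286, which is the smallest these groups allow, 0.114, 0.114 and 0.0857, and each was 0.114 after adjustment over the 4. Averaged over all 8 groups, males and females did not separate (log2 difference -0.03, SE 0.0714, limma adjusted p = 0.956), in a comparison that called 0.214% of genes.

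The female responses depended on single libraries. Over all fits that left out 1 library they ran from 0.54 to 0.78 for fluoxetine and from 0.49 to 0.87 for lithium, and the male responses from 1.27 to 1.36 for fluoxetine and from 1.65 to 1.75 for lithium. Without HT lithium female 1, at 1888, the female lithium response was 0.49, and the sex difference of the lithium response was 1.21 with a limma adjusted p of 0.00501. Without HT vehicle female 4, at 600.0, the female fluoxetine response was 0.54 and the sex difference of the lithium response was 1.14 (adjusted p = 0.0271). Without HT lithium female 2, at 1109, the female lithium response was 0.87 and the sex difference of the lithium response 0.83 (adjusted p = 0.448).

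Markers of striatal tissue varied across these same libraries. The summed striatal markers were 30370 in HT vehicle female 4 and 6893 to 7819 in the other HT vehicle females, and 28011, 7570 and 28427 in the 3 HT vehicle males. With both marker scores as covariates the sex difference was 0.54 for fluoxetine (SE 0.224, limma adjusted p = 0.997) and 0.89 for lithium (SE 0.230, limma adjusted p = 0.629).

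**Figure D2:**
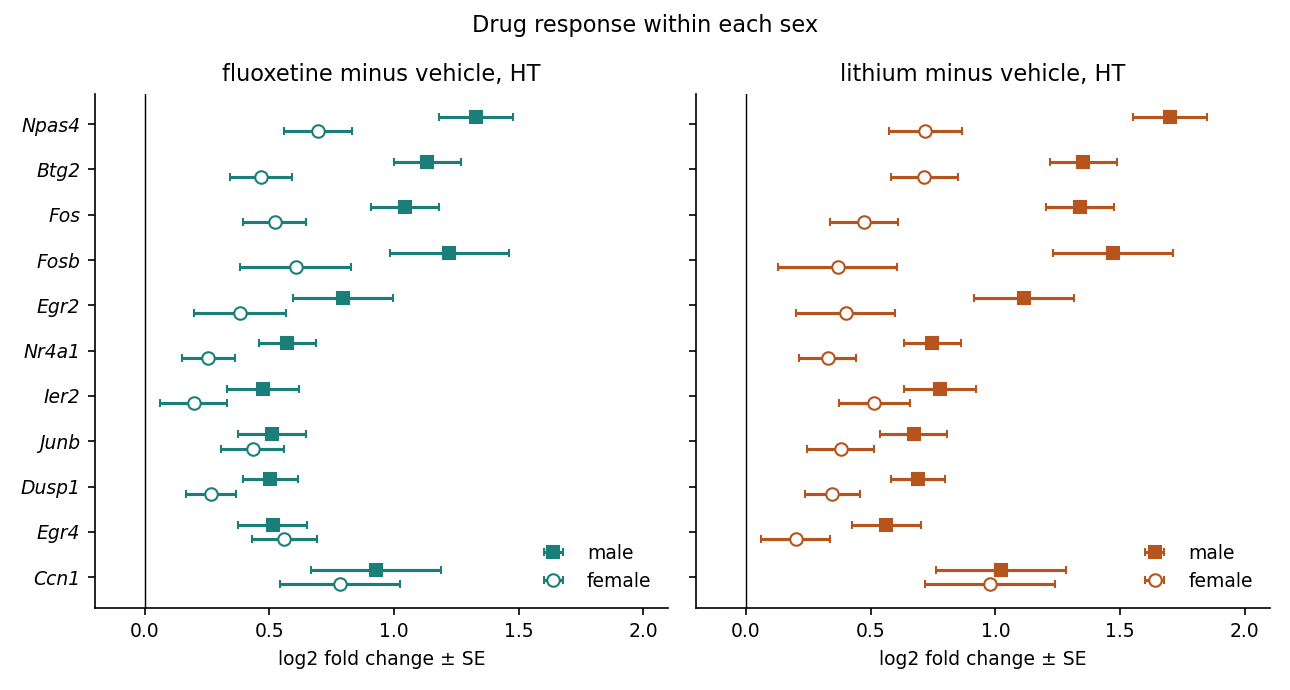
Log2 fold change against HT vehicle (horizontal axis, with SE) of Npas4 and 10 early genes called with a drug, males as filled squares above females as open circles, fluoxetine at the left and lithium at the right. Npas4 is at 1.33 in males and 0.70 in females with fluoxetine and at 1.70 in males and 0.72 in females with lithium.

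Most of the other early genes leaned the same way without passing the test. Of 23 early transcription factor genes, the male response was the larger in 14 with fluoxetine (median difference 0.11) and in 19 with lithium (median 0.26), and of 36 early effector genes in 27 with fluoxetine (0.11) and in 28 with lithium (0.16). Over all genes the medians were -0.0009 and -0.0004, with a larger male response in 49.8% of genes for fluoxetine and 49.9% for lithium. The 14 of 23 with fluoxetine is near that share. These differences draw on the same HT vehicle libraries as those of Npas4, so they are not separate support. For Fos the difference was 0.52 (SE 0.186) with fluoxetine and 0.86 (SE 0.193) with lithium, and for Btg2 0.67 (SE 0.183) and 0.64 (SE 0.190). The lowest limma adjusted p in these lists was 0.47. Ccn1, a secreted matrix protein, had differences of 0.14 with fluoxetine and 0.04 with lithium.

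In the bHLH-PAS family, to which Npas4 belongs, no other member passed the test. Of the 16 others tested, 0 were called with fluoxetine, 0 with lithium and 0 between genotypes, where 0.0357%, 0.0892% and 0.731% of all genes were called. At these shares 0 calls among 16 genes is no result about the family. Their median log2 fold changes were 0.01, -0.03 and -0.03, against -0.0016, -0.0039 and -0.0010 over all genes. The partner Arnt2 was at -0.003 (SE 0.056) with fluoxetine and -0.05 (SE 0.058) with lithium, and Arnt at 0.02 and 0.06. Per kilobase of exon, Arnt2 averaged 1511, 1473, 1511 and 1472 normalized counts in HT fluoxetine, HT lithium, HT vehicle and WT vehicle, against 343, 414, 178 and 193 for Npas4. Arnt was at 165, 170, 163 and 158. Npas1, which marks some inhibitory neurons, Npas2, a relative of Clock, and Npas3 were at 81.7, 253 and 41.6 in HT fluoxetine, at 74.0, 226 and 42.7 in HT lithium and at 80.0, 259 and 41.5 in HT vehicle.

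The value farthest from 0 in this family with fluoxetine belonged to Hif3a, a hypoxia-inducible factor subunit, at 0.37 (SE 0.137, adjusted p = 1), which was at -0.16 with lithium. With lithium it belonged to Npas2, at -0.19 (SE 0.089, limma adjusted p = 0.873). Ahrr, the repressor of the dioxin receptor, was at 0.40 in HT minus WT vehicle (SE 0.122, adjusted p = 0.198).

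Among genes reported upstream of Npas4 no change passed the test. The list holds calcium channels, calmodulin kinases, CREB, MEF2 and SRF factors with their cofactors, and the repressor Rest. Of its 28 members 0 were called in any of the 3 comparisons, which with 0.0357%, 0.0892% and 0.731% of all genes called is no result about this list. Median log2 fold changes were 0.007 with fluoxetine, -0.05 with lithium and -0.02 between genotypes. With lithium 8 of 28 were positive and 5 had an unadjusted limma p under 0.05, against 47.8% and 5.72% of all genes. Creb1 was at -0.04 (SE 0.051) and -0.02 (SE 0.053) with fluoxetine and lithium. Crtc1, a CREB coactivator, had the smallest p of the list, at -0.10 with lithium (SE 0.035, adjusted p = 0.751). These are transcript levels, and the phosphorylation by which several of these proteins act was not measured.

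Among reported targets of NPAS4 in rodent neurons no change passed the test. Of 7 genes 0 were called in any of the 3 comparisons, which with 0.0357%, 0.0892% and 0.731% of all genes called is no result about these targets, and the median log2 fold changes were 0.05 with fluoxetine, 0.03 with lithium and -0.02 between genotypes. Bdnf, the neurotrophin, averaged 827 ± 146 in HT fluoxetine, 845 ± 163 in HT lithium, 788 ± 198 in HT vehicle and 916 ± 130 in WT vehicle (SD, n = 8, 7, 7 and 8). Its log2 fold changes were 0.11 (SE 0.132) and 0.14 (SE 0.137), adjusted p = 1 and 0.881. Nptx2, a pentraxin that clusters AMPA receptors, was at 0.08 (SE 0.071) with fluoxetine and -0.002 (SE 0.074) with lithium. Csrnp1, a nuclear protein also on the early list, had the largest drug values, 0.21 (SE 0.082) and 0.22 (SE 0.085), and neither passed. Bdnf is counted here as a whole gene, so its activity-dependent promoters were not resolved.

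**Figure D3:**
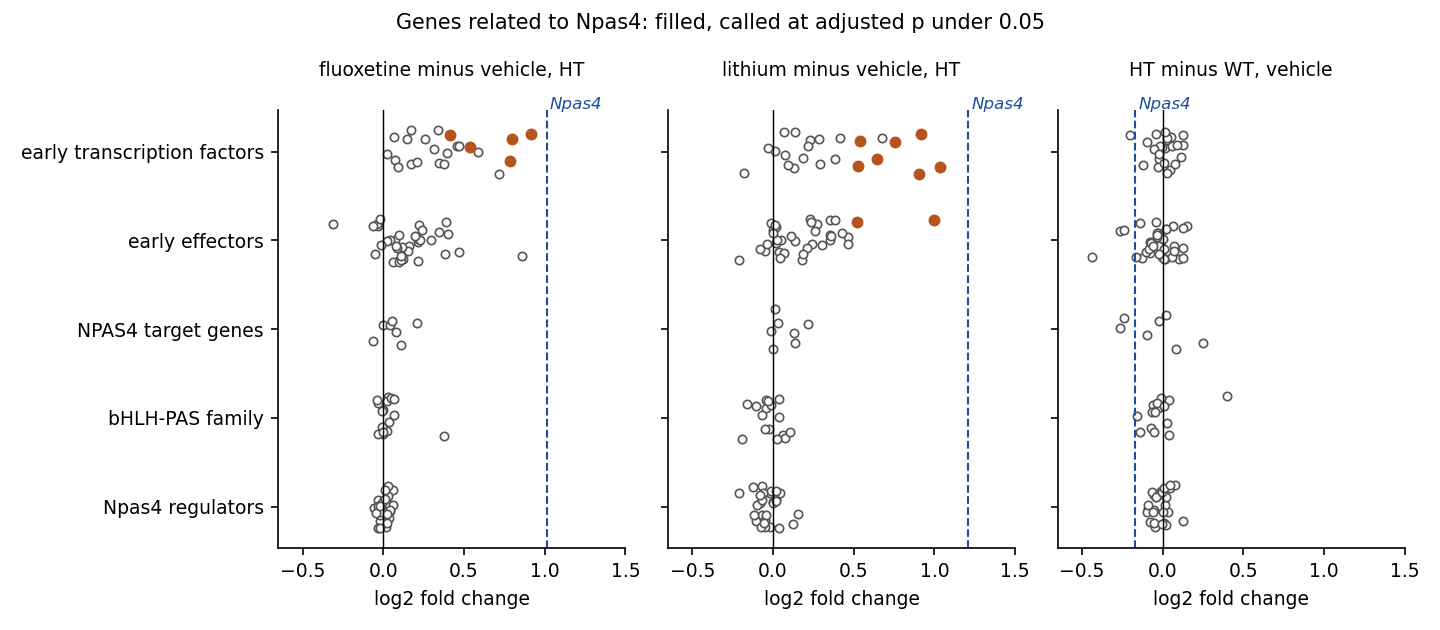
Log2 fold change (horizontal axis) of every tested member of 5 gene lists, with vertical scatter only to separate points, for fluoxetine, lithium and genotype, and filled where the adjusted p was under 0.05. The dashed line is Npas4, at 1.01, 1.21 and -0.17, and the filled points number 5, 9 and 0.

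The early transcription factors, which like Npas4 are transcribed quickly after stimulation, had the most calls of the 5 lists. With fluoxetine, where 0.0357% of all genes were called higher, 5 of 23 were called higher and 0 lower: Btg2, Fos, Fosb, Egr4 and Nr4a1. All 23 had a positive log2 fold change, against 48.7% of all genes, with a median of 0.34. With lithium, where 0.0892% of all genes were called higher, 7 of 23 were called higher and 0 lower: Btg2, Fos, Fosb, Nr4a1, Egr2, Ier2 and Junb. Of the 23, 21 were positive, against 47.8% of all genes, and the median was 0.28. Between genotypes, where 0.731% of all genes were called, 0 were and the median was 0.01.

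Fos averaged 1836 ± 159 in HT fluoxetine and 2120 ± 550 in HT lithium, against 1088 ± 155 in HT vehicle and 1071 ± 108 in WT vehicle (SD, n = 8, 7, 7 and 8). Its log2 fold changes were 0.78 (SE 0.093, limma adjusted p = 5.01e-05) and 0.91 (SE 0.097, adjusted p = 6.08e-06). HT lithium females had 2368, 1201 and 1566, and the lowest of these lay below the highest HT vehicle value, 1342. For Btg2 the HT lithium males had 1207, 1498, 1675 and 1411 and the females 1563, 1016 and 1027, against 629.4, 569.6 and 496.9 in HT vehicle males and 865.9, 764.5, 705.8 and 565.6 in HT vehicle females. Btg2 thus showed no overlap, as for Npas4, and its lithium libraries were in the same order within females, with female 1 the highest.

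The other called factors had smaller responses or wider errors. Fosb, the Fos relative whose splice form accumulates with repeated stimulation, was at 0.91 (SE 0.163, adjusted p = 0.0319) and 0.92 (SE 0.169, adjusted p = 0.0196). The orphan nuclear receptor gene Nr4a1 was at 0.41 and 0.54, and the zinc finger factor Egr4 at 0.54 with fluoxetine (adjusted p = 0.0266) and 0.38 with lithium (adjusted p = 0.405). Egr2, a zinc finger factor, Ier2 and the AP-1 subunit Junb rose with lithium by 0.76, 0.65 and 0.53. The fluoxetine calls of Egr4, Fosb and Nr4a1 were lost in 10, 12 and 14 of the 15 fits that left out 1 library, and those of Fos and Btg2 with either drug in 0. The lithium calls of Egr2, Fosb and Junb were lost in 8, 7 and 3 of 14 such fits, and those of Nr4a1 and Ier2 in 0.

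The early effectors, genes switched on by neuronal activity that mostly encode proteins other than transcription factors (Crem, a CREB relative, is an exception, and also stands among the regulators), gave fewer calls. With fluoxetine, where 0.0357% of all genes were called, 0 of 36 were, and edgeR and DESeq2 called 0 and 3 of them. At this share 0 calls is no result about the list. An unadjusted limma p under 0.05 was found for 17 of 23 early factors but 13 of 36 effectors, against 2.63% of all genes. With lithium, where 0.0892% of all genes were called, 2 effectors were called higher. These were Dusp1, a MAP kinase phosphatase, at 0.52 (SE 0.078) and Ccn1 at 1.0005 (SE 0.184). With fluoxetine Dusp1 was at 0.39 (limma adjusted p = 0.0539) and Ccn1 at 0.86 (limma adjusted p = 0.104). The medians of the 36 were 0.12 with fluoxetine and 0.19 with lithium. Of the 36, 29 were positive with fluoxetine and 30 with lithium, against 48.7% and 47.8% of all genes. Arc, the dendritic cytoskeletal protein of synaptic plasticity, was at 0.47 with each drug (SE 0.112 and 0.116, adjusted p = 0.341 and 0.343). The call of Ccn1 with lithium was lost in 6 of 14 fits that left out 1 library.

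Between genotypes, where 0.731% of all genes were called, 0 of 36 early effectors were, which is no result about this list. Rasl11a, a small GTPase, came closest, at -0.43 (SE 0.115, limma adjusted p = 0.0856).

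Genes that follow Npas4 from library to library were sought after removing the mean of each of the 8 groups. Over 30 libraries the highest Pearson correlations among 12820 genes belonged to Fos (0.81), Stx4a (0.73), Btg2 (0.73), Nr4a1 (0.72), Tob1 (0.70), Bfar (0.68), Syk (0.67), Fosb (0.67), Midn (0.67) and Plod3 (0.67). The middle 95% of these genes lay between -0.40 and 0.41. Fos, Btg2, Nr4a1 and Fosb are early genes called with both drugs, and Tob1, a relative of Btg2, was called with lithium at 0.38. Stx4a, a plasma membrane syntaxin, Bfar, a ubiquitin ligase, Syk, a tyrosine kinase, and Plod3, a collagen-modifying enzyme, were at 0.09 or less with either drug.

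The lowest correlations belonged to Meg3, a maternally expressed long noncoding RNA (-0.74), Srr, serine racemase (-0.69), Fbxl21, a clock-linked F-box protein (-0.67), Arrdc4 (-0.63) and Slc39a9, a zinc transporter (-0.62). None of these 5 was called with either drug, and their log2 fold changes lay between -0.12 and 0.14. Each library was normalized by its own size factor, and depth and tissue makeup can enter such correlations.

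For 13 genes the correlation was tested by permuting libraries within groups (100000 resamples, 2-sided). After adjustment over the 13, Fos passed with r = 0.81 (permutation p = 0.00012, adjusted p = 0.00156) and Spearman's rho = 0.76 (permutation p = 0.00029, adjusted p = 0.00377). Fosb (r = 0.67, adjusted permutation p = 0.00448, rho = 0.64), Nr4a1 (r = 0.72, adjusted permutation p = 0.0185, rho = 0.58) and Btg2 (r = 0.73, adjusted permutation p = 0.0201, rho = 0.56) passed too. Arc, Egr1, Egr4, Junb, Dusp1, Nptx2, Bdnf, Arnt2 and Creb1 did not, with r between -0.35 and 0.53. The 13 genes were chosen with earlier results of these data known, and adjustment over the 13 does not cover that choice.

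The 2 libraries with the Npas4 deviation farthest from the median were HT vehicle female 4 and HT lithium female 1. Without them r was 0.76 for Fos, 0.59 for Fosb, 0.58 for Nr4a1 and 0.54 for Btg2, and 0.28 for Arc and 0.22 for Nptx2, which had been 0.53 and 0.52. For Fos r was 0.93 within the 15 drug-treated libraries and 0.72 within the 15 vehicle libraries, and in neither subset did a gene of the 13 pass after adjustment.

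**Figure D4:**
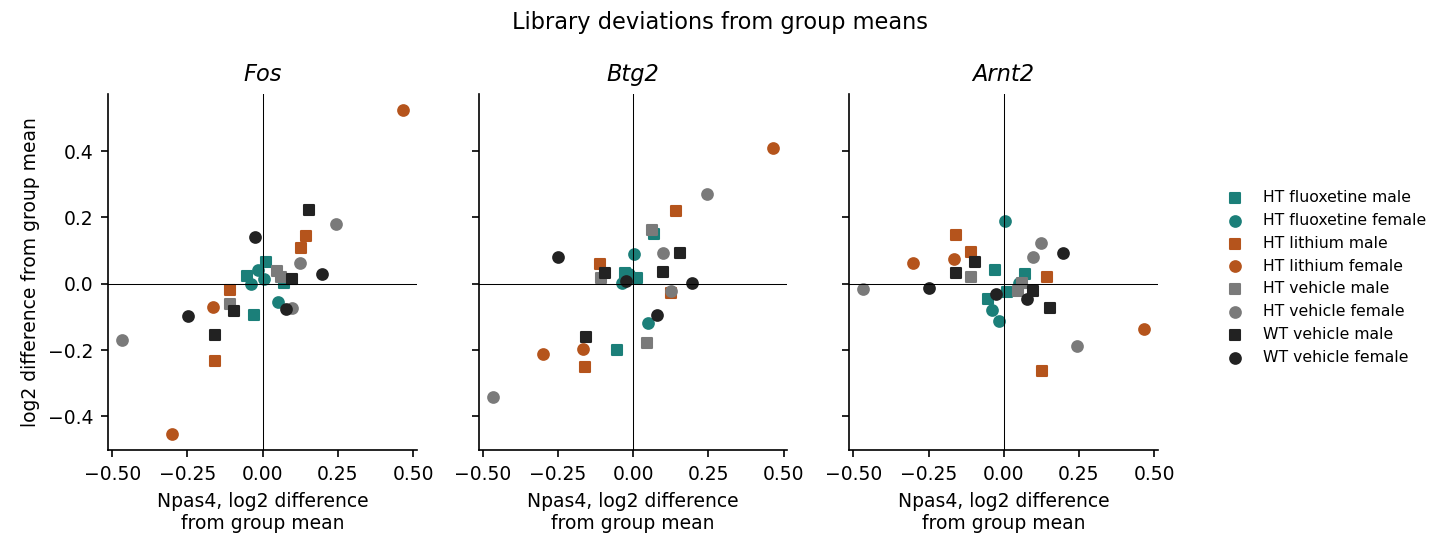
Each point is 1 of 30 libraries, with the log2 deviation from its group mean of Npas4 on the horizontal axis and of Fos, Btg2 or Arnt2 on the vertical axis, coloured by genotype and treatment, males as squares and females as circles. Fos (r = 0.81) and Btg2 (r = 0.73) run along the diagonal with HT lithium female 1 at the upper right, and Arnt2 (r = -0.35) does not.

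By list, the median correlation with Npas4 was 0.35 for the 23 early transcription factors, all 23 positive, and 0.29 for the 36 early effectors. It was 0.19 for the 7 reported NPAS4 targets, of which 6 were positive, -0.13 for the bHLH-PAS family and -0.02 for the regulators. Over the 12820 genes ranked the median was 0.01. Markers of cell types and neighbouring tissue lay between -0.42 for Pdgfra and 0.36 for Eomes. The 7 olfactory bulb and neuroblast markers were all positive, from 0.17 to 0.36, and the 9 striatal markers all negative, from -0.27 to -0.10. Their part in the correlations was not tested.

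The genes next to Npas4 on chromosome 19 were examined too. The 3 nearest tested genes were Dpp3, Peli3 and Mrpl11 on one side and AC124502.5, Slc29a2 and B4gat1 on the other. Of these, 0 were called with either drug or between genotypes, where 0.0357%, 0.0892% and 0.731% of all genes were. At these shares that is no result about the neighbours. AC124502.5, a transcript model 1041 bases from Npas4 on the same strand, averaged 67.2 normalized counts and was at 0.19 with fluoxetine and 0.29 with lithium (adjusted p = 1 and 0.879). The other 5 were at or just below zero with fluoxetine, the lowest of them Dpp3 at -0.07.

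The called early genes with a single promoter window also had CRE cores there. Of 10 early genes called with a drug besides Npas4, 8 had a single RefSeq window, and TGACG was present in 8 of these 8, against 17.8% of all windows. It occurred at 2 or more positions in 5 of them, Fos, Btg2, Egr4, Nr4a1 and Dusp1, against 3.90% of all windows, where a full palindrome counts as 2 overlapping matches. The full TGACGTCA was present in Btg2 and Dusp1, and TCGTG in Fosb, Egr4 and Junb. Left out were Egr2, with more than 1 window, of which some held 0 matches to TGACG and others 2, and Ier2, which had no window. Uncalled early genes such as Egr1 and Arc were not searched, so these matches cannot set the called genes apart from other early genes. No motif was tested for a link to the drug response.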

How the data were processed

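Bulk RNA sequencing signal was deposited by the authors as 1 gene-level table of 18240 genes and 30 libraries. The submitters' processing notes name build GRCm38, DESeq2 1.19.11, R 3.6.0 and Salmon 0.11.2, and the sources used here do not give filters or strand handling. The values show counts divided by 1 size factor per library, and 100% came out as whole reads within 0.01 of a read; in 2 columns the step lay within 0.5% of 1. Libraries held 23771758 to 34307061 reads. Symbols (18227 of 18240) and coordinates came from GENCODE M21. Replicates differed by more than sampling noise (chi-square per degree of freedom 4.57 to 30.1 over 42 pairs).

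Tests used limma 3.58.1 in R 4.3.3 with a mean-variance trend and robust moderation. Values were log2(normalized count + 1) for 16824 genes, those averaging 10 or more, in 1 fit of 8 group means with 22 residual degrees of freedom. Benjamini-Hochberg adjustment ran over all genes tested, and genes were called at an adjusted p under 0.05. Fold changes on this scale understate the change of low genes. Single Npas4 values were compared by exact permutation, 2-sided. For the sex differences of a drug response or of the genotype difference, sex was permuted within each treatment and genotype, supposing no sex difference in any. The fit was tested on simulated data. edgeR 4.0.16 and DESeq2 1.42.0 were run on the recovered reads as alternatives. Other alternatives were the pseudocount, the filter, equal totals, only the groups compared, a replicate block and leaving out each library. The fits with marker scores as covariates, with the block by library number, and without the libraries of lowest summed count (HT vehicle female 1, HT lithium male 4), were added after seeing the data.

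Npas4, the lists and the tests were chosen with earlier results of these data known. Genes named are the called members of each list, up to 6 further members by p in the drug comparisons, the 10 highest and 5 lowest correlations among genes with a mean of at least 50, the 3 tested neighbours on each side, Arnt, Arnt2, Adnp and marker genes. Other members named, and Gm20716, were chosen after their values were seen. Promoter windows came from RefSeq (GRCm38.p6), and motifs were searched on both strands. A single excitatory neuron marker is not reported here.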

Additional observations from a re-analysis of the deposited data

Results flagged for a closer look

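The sex difference of the Npas4 drug response was flagged by permutation of sex within each treatment, which supposes no sex difference with drug or with vehicle. It was 0.63 on the log2 scale for fluoxetine and 0.98 for lithium, male minus female, with an adjusted permutation p of 0.0239 each over the 3 sex differences examined, and neither passed in the limma fit adjusted over all genes. Both rest on the same 3 male and 4 female HT vehicle libraries.

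Nptx2 in HT fluoxetine female 3 had 1413 normalized counts, far above the other 7 HT fluoxetine libraries, which ran from 1086 to 1211. Among 80 groups of 8 genes examined for such a library it was the only one marked, and chance marks about 1 in 20 groups.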

How the results depend on the processing

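Npas4 stayed between 0.93 and 1.05 (log2) with fluoxetine and between 1.09 and 1.29 with lithium under every alternative run. HT minus WT and fluoxetine minus lithium stayed negative and uncalled, with leave-one-out ranges of -0.21 to -0.09 and -0.27 to -0.08. Male minus female ran from -0.072 to 0.025 when 1 library was left out, turning positive (0.025) only without HT lithium female 1. The sex differences of response ran over all alternatives from 0.54 (marker scores as covariates) to 0.79 for fluoxetine, from 0.83 to 1.21 for lithium and from -0.33 to -0.09 for the genotype difference, and over leave-one-out fits from 0.55 for fluoxetine.

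Genes called with fluoxetine numbered 6, against 11 when only the compared groups were fitted and 12 by DESeq2, and with lithium 15 against 5 when only the compared groups were fitted. DESeq2 called 14 genes for fluoxetine minus lithium, against 0, and 79 for male minus female, against 36. Leaving out 1 library gave 3 to 7 genes with fluoxetine, 8 to 16 with lithium and 0 to 4 between the drugs. Early transcription factors called with lithium fell to 3 when only the compared groups were fitted, and leaving out 1 library gave 2 to 4 with fluoxetine and 4 to 7 with lithium. Early effectors called with fluoxetine numbered 1 with equal totals, 1 with the replicate block by either numbering, 2 with only the compared groups and 3 by DESeq2. With lithium they numbered 0 with only the compared groups and 4 by DESeq2, and between genotypes 1 by DESeq2 and 1 without the 2 libraries of lowest summed count. Leaving out 1 library gave 0 to 2, 1 to 2 and 0 to 1. The cause was not tested. The number of the 13 correlations that passed, 4 over 30 libraries, was 0 within vehicle and 0 within drug-treated libraries, where each subset holds 15 libraries.

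Replicate numbers are shared between groups but did not pair the libraries (correlation of deviations between same-numbered libraries -0.43 to 0.45). The numbers are those of the sample titles, which differ from the numbers in the library names for 2 libraries, HT lithium female 2 and 3. By library number the correlations also ran from -0.43 to 0.45, and the block then gave 1.03 with fluoxetine, 1.23 with lithium and 7 and 15 genes called. With the replicate block by title, Npas4 was at 1.03 with fluoxetine and 1.21 with lithium, -0.19 for genotype and -0.18 between the drugs, and the counts of genes called were 7 and 14. Arnt2 then passed among the correlations, at -0.53. Of 341 alternative fits of the called list members, 273 kept the call and 0 changed sign. Each group holds 3 or 4 libraries per sex, and counting error of Npas4 was at most 4.35%.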
